A study of Mus musculus with 8 samples.

Results

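LTR retroelements are the remnants of retroviruses that entered the germ line, and 2772 of the 58522 ATAC-seq peaks listed for mouse liver sinusoidal endothelial cells (LSECs) had their annotated position inside one. They were taken as the rows whose detailed annotation names a repeat of class LTR, and they made up 4.74% of the table. ERVL-MaLR held 1240 of them, ERVK 810, ERV1 352 and ERVL 338. The other 32 carried the family names Gypsy, Gypsy?, ERVL?, ERVK? or LTR, and 6 more peaks of the uncertain class "LTR?" were left out.

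ATAC-seq measures accessible chromatin by letting the Tn5 transposase cut and tag open DNA. LSECs, the fenestrated endothelium of the hepatic sinusoids, were selected by CD146 from 12-week-old mice, with 4 libraries from control and 4 from MafLSEC-KO livers. MafLSEC-KO mice carried Maf fl/fl together with Clec4g-iCre tg/wt, a Cre transgene (line C57BL/6N-Tg(Clec4g-icre)) that removes Maf, which encodes c-Maf, from cells that express Clec4g. Controls were littermates that lacked the transgene (wt/wt) and were Maf fl/fl or Maf fl/wt, so floxed alleles were present in both groups and the Cre in MafLSEC-KO. Per the methods the livers of 3 mice were pooled for 1 isolation, and CD146 also selects endothelium of larger vessels. The labels state 3 mice beside the 4 libraries of a group, so libraries may share animals, and the p-values here cover differences among libraries that may be technical.

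A full LTR element has 2 long terminal repeats around an internal part that once coded for the viral proteins, and most copies have since shrunk to a single LTR. The terminal repeat holds the viral promoter and enhancer, so it is rich in binding sites for transcription factors of the host. ERV1 and ERVK elements (MMVL30 and the IAP elements among them) resemble gamma- and betaretroviruses, whereas ERVL and its non-autonomous MaLR relatives (the MT and ORR1 repeats) are older and lack an envelope gene. In most cells such copies are kept closed by DNA methylation and by histone H3 lysine 9 methylation, laid down through TRIM28 and SETDB1. c-Maf is a leucine zipper factor that binds TGCTGA half-sites, and AP-1, made of FOS and JUN proteins, binds TGANTCA.

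Maf itself checked the labels. Its promoter peak (chr8:115706763-115708356, mm10) had raw counts of 314, 558, 360 and 1088 in the controls, in order of replicate, and of 125, 124, 131 and 98 in MafLSEC-KO. The signal fell by 2.42 on the log2 scale (SE 0.19, edgeR adjusted p = 2.37e-07). Maf is the floxed gene, so removed DNA and closed chromatin cannot be told apart at this peak. The counts summed over all peaks were 5.37 to 13.36 M per library, with control replicates 1 and 3 the shallowest. Markers of 6 cell types were summed over their peaks. All 12 sinusoidal genes had a peak, and the range overlapped between the groups for every list except lymphocytes (124 to 141 CPM in control, 107 to 119 in MafLSEC-KO, with a peak at 4 of 10 genes and none at Cd3e, Cd79a, Ms4a1, Cd8a or Nkg7). By flow cytometry of such isolations, the paper reports a smaller share of cells positive for LYVE1 and/or CD31 in MafLSEC-KO than in control. It reports a larger share positive for the myeloid marker CD11b. The part of other cell types in the results was not tested.

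The sequences below show what 4 of the LTR subfamilies look like inside their called peaks. They are stretches of the GRCm38 (mm10) reference, written 5′ to 3′ on the strand that aligned best, with the searched word in capitals. These subfamilies and words were picked after their values were seen. The first are RMER19B2 copies (ERVK), called lower in MafLSEC-KO, around the half-site TGCTGA, which 4 of the 6 called copies held.
RMER19B2 near Kif3a: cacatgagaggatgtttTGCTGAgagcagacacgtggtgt
RMER19B2 near Cdh19: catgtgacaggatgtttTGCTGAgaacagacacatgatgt
RMER19B2 near Trim5: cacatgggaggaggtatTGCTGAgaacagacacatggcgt
RMER19B2 near Prxl2c: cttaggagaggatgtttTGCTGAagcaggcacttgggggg
They come from chr11:53563233-53563272, chr1:111090933-111090972, chr7:104291840-104291879 and chr13:64320532-64320571. Against the Kif3a copy, the Cdh19 and Trim5 copies differed at 6 of 40 bases each and the Prxl2c copy at 16.

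The related RMER19B copies (ERVK), also called lower, carried the word in another context.
RMER19B near Abi1: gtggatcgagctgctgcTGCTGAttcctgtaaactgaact
RMER19B near Bcl10: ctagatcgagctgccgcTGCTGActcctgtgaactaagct
RMER19B near Ankrd44: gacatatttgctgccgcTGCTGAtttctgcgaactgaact
They lie at chr2:23021985-23022024, chr3:145909792-145909831 and chr1:54903073-54903112, and the Bcl10 and Ankrd44 copies differed from the Abi1 copy at 7 and 12 of 40 bases without gaps. Copies near Slit2 and Arhgap27 differed at 15 and 20, so this context was not shared by all.

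RLTR13C2 copies (ERVK), called higher in MafLSEC-KO, shared a stretch around the word searched as MEF2, CTA and TAG with any 4 bases between. Those 4 bases read TAGA in the copies shown, so these are matches of letters and are not shown to be MEF2 sites.
RLTR13C2 near Gatb: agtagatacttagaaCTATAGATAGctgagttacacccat
RLTR13C2 near Gsto1: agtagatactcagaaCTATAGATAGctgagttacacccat
RLTR13C2 near Tmem178b: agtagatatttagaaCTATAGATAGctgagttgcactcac
RLTR13C2 near Mir7243: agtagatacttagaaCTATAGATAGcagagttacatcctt
They lie at chr3:85650556-85650595, chr19:47852310-47852349, chr6:40214612-40214651 and chr9:101897187-101897226, and differed from the Gatb copy at 1, 4 and 3 bases in that order.

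RLTR9E copies (ERVK), also called higher, shared a stretch around AGGTCA, a half-site of nuclear receptors.
RLTR9E near Megf9: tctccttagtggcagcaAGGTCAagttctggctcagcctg
RLTR9E near Mir653: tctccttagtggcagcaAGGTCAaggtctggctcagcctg
RLTR9E near Mmrn1: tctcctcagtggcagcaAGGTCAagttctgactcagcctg
RLTR9E near Mir6337: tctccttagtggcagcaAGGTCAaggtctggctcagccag
They lie at chr4:70657530-70657569, chr6:3678345-3678384, chr6:61047757-61047796 and chr2:65449710-65449749, and differed from the Megf9 copy at 1, 2 and 2 bases.

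At the median, LTR peaks were narrower and weaker than all listed peaks and lay farther from transcription starts. Their median width was 441.5 bases against 574 for all peaks, their median level was 6.09 against 8.78 CPM (counts scaled by library size with TMM factors), and their median distance to the nearest transcription start was 27 against 16.2 kb. In intronic or intergenic peaks outside repeats these medians were 513 bases, 7.93 CPM and 23.7 kb, closer to those of LTR peaks. Of the 2772, 1710 were intergenic, 1062 were intronic and 0 lay elsewhere. LINE and SINE peaks, taken from the same annotation, were likewise all intronic or intergenic, so this is not particular to LTR peaks. Repeats can be hard to place with short reads. In 78.4% of LTR peaks, at least 90% of 60-base words occurred once in the reference genome, and this share was 57% in LINE, 82.2% in SINE and 96.0% in peaks outside repeats. It was 97.9% in ERVL, 93.6% in ERVL-MaLR, 62.2% in ERV1 and 53.2% in ERVK, and 158 LTR peaks had no unique word. Peaks that reach the 90% are called unique here.

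The first question was whether accessibility of LTR elements as a whole differed between control and MafLSEC-KO. LTR peaks took 2.62, 2.47, 2.61 and 2.48% of all counts in the controls, in order of replicate, and 2.46, 2.39, 2.51 and 2.49% in MafLSEC-KO. The means were 2.54% ± 0.080 and 2.46% ± 0.055 (SD, n = 4 each), and the groups overlapped. ERV1 was the only one of the 4 large families without overlap. Its share was 0.426, 0.389, 0.416 and 0.399% in control and 0.356, 0.344, 0.363 and 0.367% in MafLSEC-KO, a log2 ratio of -0.19. Every MafLSEC-KO library lay below every control library, and this was also so in unique ERV1 peaks (0.264 to 0.286% against 0.238 to 0.253%, log2 ratio -0.15). ERVL moved the other way by a log2 ratio of 0.05 and ERVL-MaLR by -0.03, with overlap in both. A lower share was not particular to ERV1. SINE peaks took 2.06 to 2.16% in control and 1.92 to 2.05% in MafLSEC-KO, also without overlap (log2 ratio -0.08). LINE peaks had a log2 ratio of -0.19, with overlap.

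ERVK showed how much the repeated part of the genome depended on the library. Over all its peaks the share was 0.696 and 0.678% in the shallow control replicates 1 and 3, 0.611 and 0.574% in control replicates 2 and 4, and 0.588 to 0.641% in MafLSEC-KO. In unique ERVK peaks the 8 libraries lay between 0.380 and 0.399% and the log2 ratio of the groups was 0.00. In ERVK peaks that are not unique the controls ranged from 0.179 to 0.298%. These shares are descriptions with no test.

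**Figure D1:**
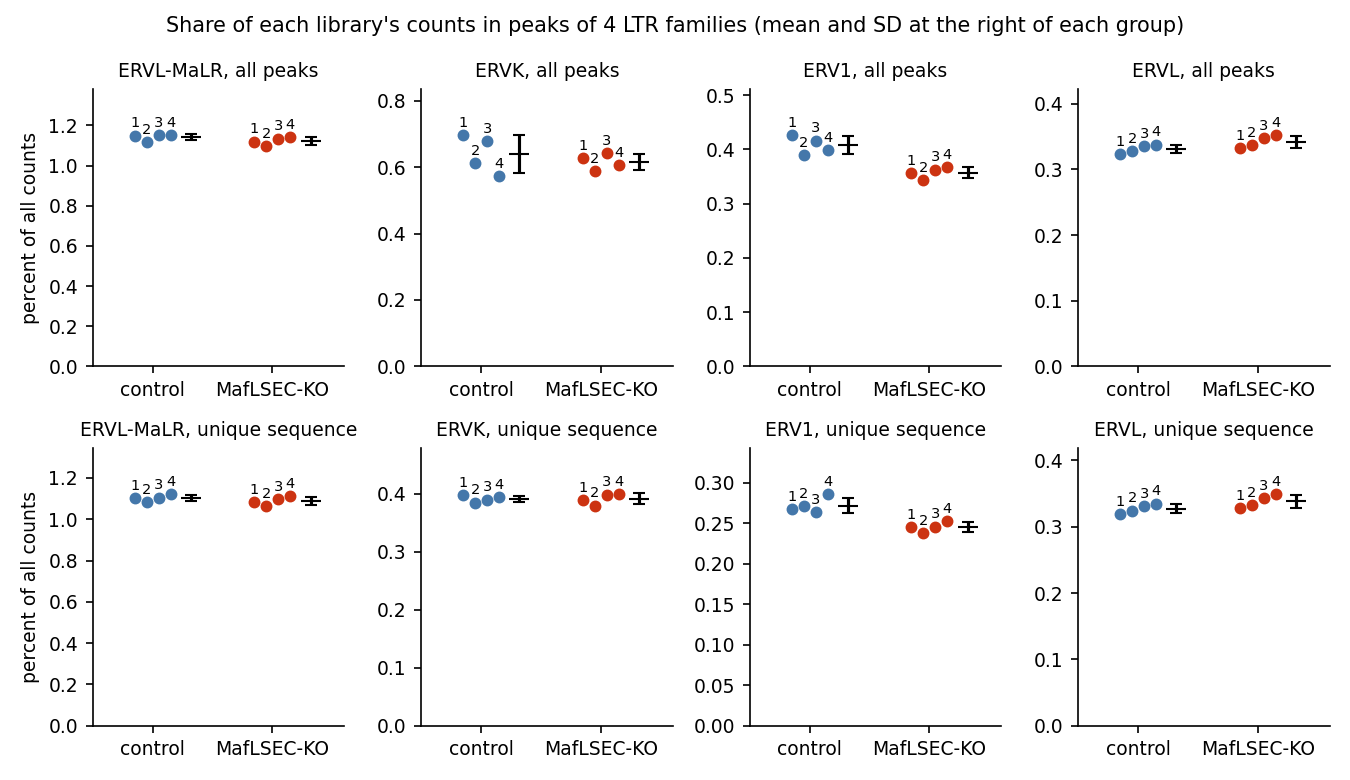
Percent of each library's counts (y axis) in peaks of 4 LTR families for control and MafLSEC-KO libraries (x axis, points numbered by replicate), over all peaks (top) and over unique peaks (bottom), with mean and SD beside each group. Only ERV1 separated the groups (0.389 to 0.426% against 0.344 to 0.367%), and the spread of ERVK in controls, 0.574 to 0.696%, shrank to 0.385 to 0.398% in unique peaks.

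Single LTR peaks moved in both directions. Of the 2740 LTR peaks that passed the filter on low counts, 277 (10.1%) were called higher in MafLSEC-KO and 228 (8.32%) lower (edgeR, adjusted p under 0.05 over all 58268 tested peaks), against 8.97% higher and 6.45% lower among all tested peaks. The groups did not overlap in 22.8% of LTR peaks, and in 19.4% of all. In other peaks the shares were 5.73% higher and 4.79% lower in LINE, 5.58% and 7.16% in SINE and 10.4% and 7.57% in intronic or intergenic peaks outside repeats, a description with no test over peaks. The median log2 change was 1.14 among LTR peaks called higher and -0.98 among those called lower, whereas the median over all tested LTR peaks was -0.03. Unique LTR peaks were called more often (11.6% higher, 9.35% lower of 2171) than the other 569 (4.39% in each direction). In LINE the unique peaks had 9.86% higher and 6.27% lower calls and the others 0.164% and 2.79%. Of the LTR calls, 91.0% of the higher and 89.0% of the lower calls were unique. Without control replicate 4, the deepest control, the order turned, with 294 LTR peaks called higher and 328 lower.

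The families differed in the balance of the 2 directions. In ERVL, 51 of 338 tested peaks (15.1%) were called higher and 29 (8.58%) lower. In ERV1 it was the reverse, with 26 of 351 (7.41%) higher and 45 (12.8%) lower. ERVK had 81 higher and 55 lower of 783 (10.3% and 7.02%), and ERVL-MaLR had 113 and 96 of 1236 (9.14% and 7.77%). Over all their peaks both were near the background given above. For ERVK this mixed unique peaks (14.42% higher and 10.23% lower of 430) with the other 353 (5.38% and 3.12%). Unique peaks had 15.11% higher and 8.76% lower calls in ERVL, 10.96% and 15.07% in ERV1, and 9.49% and 8.11% in ERVL-MaLR. The part of uniqueness in the differences between families was not tested. The 32 peaks of the other family names had 6 higher and 3 lower calls, 3 of each in Gypsy. Without MafLSEC-KO replicate 3 the ERV1 calls higher numbered 17 and the ERVL calls lower 19, and without control replicate 4 the ERVK calls lower numbered 104.

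The terminal repeats and the internal parts, which the repeat names mark with "-int", were called at different rates in ERVK and ERV1. Terminal repeats of ERV1 were called lower in 42 of 237 (17.7%) and higher in 24 (10.1%), whereas 3 and 2 of 114 internal ERV1 peaks were called. In ERVK, 49 (8.58%) and 71 (12.4%) of 571 terminal repeats were called lower and higher, against 6 and 10 of 212 internal peaks. Only 27% of internal ERV1 and 36.6% of internal ERVK peaks were unique, against 79.3% and 59.7% of their terminal repeats, and the part of uniqueness in these rates was not tested. In ERVL, where nearly all peaks are unique, 9 of 48 internal peaks were called higher and 5 lower.

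**Figure D2:**
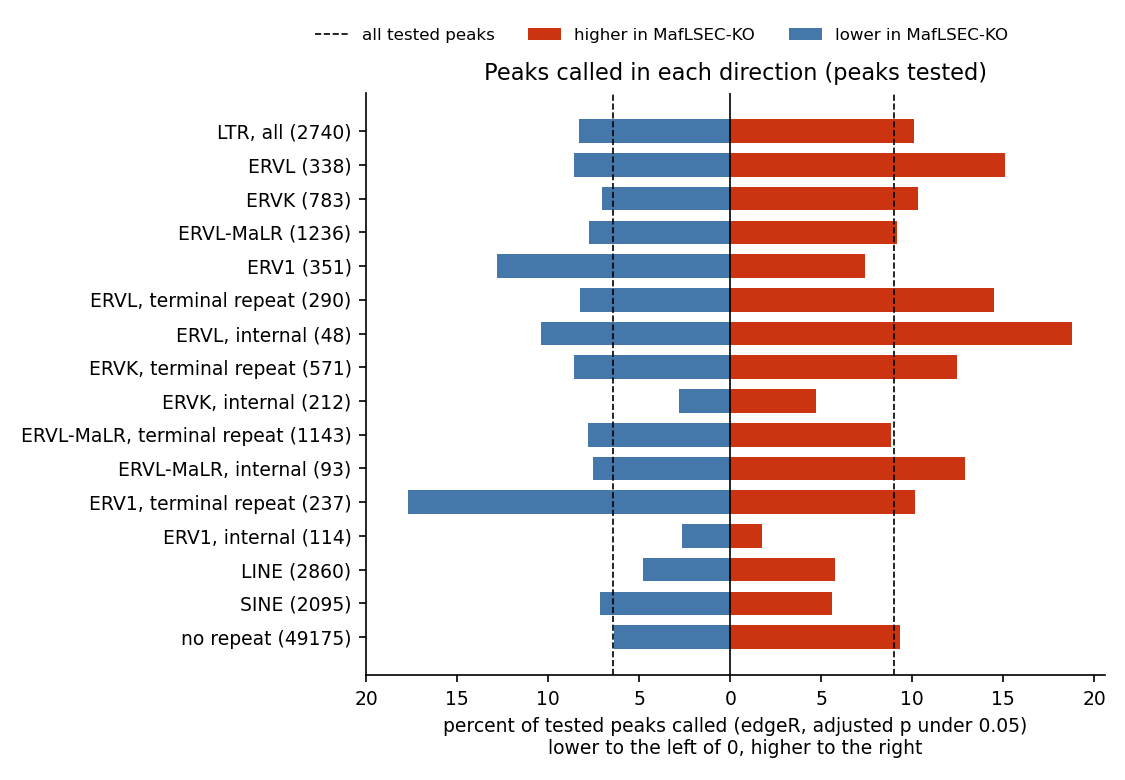
Percent of tested peaks called higher (red, right) or lower (blue, left) in MafLSEC-KO by edgeR for LTR families, their terminal and internal parts and other classes, with the number tested in parentheses and dashed lines at the shares of all tested peaks (8.97% and 6.45%). ERVL stood farthest to the right among the families (15.1% higher) and ERV1 farthest to the left (12.8% lower).

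Among repeat names, some LTR subfamilies moved as a set of copies. Counts were summed over the peaks of each name and 852 names of all repeat classes were tested together, of which 10.1% were called higher and 9.15% lower. Of 408 LTR names 55 (13.5%) were called higher and 44 (10.8%) lower, and 127 of the 408 rested on a single peak. The names called higher numbered 28 to 34 without control replicate 2 or without MafLSEC-KO replicate 1, 2 or 3, and leaving out replicate 2 of control or of MafLSEC-KO gave 28 and 24 names called lower. Of the 66 LTR names with at least 10 tested peaks, 31 had copies called in both directions, 14 only higher, 13 only lower and 8 none, so copies of 1 name often went both ways.

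RLTR13C2 was the ERVK name with the most copies called higher. Of its 30 copies 13 were called higher and 0 lower, on 11 chromosomes, and 27 had a log2 change above 0. The summed level was 187, 162, 191 and 137 CPM in the controls and 255, 255, 263 and 267 CPM in MafLSEC-KO. The groups did not overlap, and the sum rose by 0.63 on the log2 scale (SE 0.09, edgeR adjusted p = 9.86e-04). Its called copies ranged from 0.58 to 1.94. Only 8 of the 30 copies were unique, 5 of them called.

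The copy with the smallest p lay in an intron near Tmem178b (chr6:40214080-40214938), where the level was 8.19 ± 1.51 CPM in control and 18 ± 1.08 CPM in MafLSEC-KO (SD over 4 libraries, as in the following; log2 1.15, SE 0.18, edgeR adjusted p = 2.18e-04). The copy near Gatb, a gene of mitochondrial translation, rose from 9.06 ± 2.51 to 20.4 ± 0.872 CPM (log2 1.19, edgeR adjusted p = 2.69e-04).

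RLTR9E (ERVK) was called higher in 10 of 26 copies and lower in 0, and 23 copies lay above 0. Its sum was 187, 155, 172 and 145 CPM in control and 264, 269, 321 and 240 CPM in MafLSEC-KO, without overlap, and rose by 0.73 (SE 0.10, edgeR adjusted p = 7.34e-04). In contrast to RLTR13C2, 22 of its 26 copies and all 10 called ones were unique. The 26 copies lay at a median distance of 97.1 kb from a transcription start.

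MER21C, an old ERVL repeat, was called higher in 6 of 10 copies and lower in 0. Its sum was 145, 150, 163 and 168 CPM in control and 215, 228, 239 and 218 CPM in MafLSEC-KO (log2 0.53, SE 0.07, edgeR adjusted p = 5.38e-04). All 10 copies were unique. A strong copy near Leo1, a gene of the PAF1 transcription elongation complex, rose from 49 ± 6.04 to 72.5 ± 3.06 CPM (log2 0.56, edgeR adjusted p = 0.00226), and an intronic one near Usp25, a deubiquitinase gene, from 6.51 ± 3.38 to 18.3 ± 0.781 CPM (log2 1.55, edgeR adjusted p = 4.96e-04).

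RMER15 (ERVL) had copies in both directions, 11 higher and 6 lower of 42, and its sum was 325 to 334 CPM in control and 370 to 412 CPM in MafLSEC-KO (log2 0.25, SE 0.05, edgeR adjusted p = 0.0033). Here single copies moved much farther than the sum, from -1.38 to 2.16 on the log2 scale.

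Smaller changes of the sum were called higher for ORR1B1 (19 peaks, log2 0.28), MER21B (11, log2 0.29), LTR10_RN (11, log2 0.34) and MMERVK9E_I-int (10, log2 0.33), with 1 to 3 called copies each, all higher. These 4 were named after their values were seen. Some names called higher had few copies. RLTR21 (ERVK) was higher at all 3 of its peaks, with a sum of 9.77 ± 2.54 and 30.4 ± 5.76 CPM (log2 1.66, SE 0.22, edgeR adjusted p = 5.67e-04), and LTR53 had 2 peaks. MLT1A-int had 3 peaks, of which 2 were called higher and 1 lower (log2 -1.25), and a single peak held 71.7% of its sum. MERVL-int, the internal part of the element active in early embryos, had 2 peaks, both called higher. One of these lies beside the locus of the Cre driver and is described with it, and the other, near U2surp, a splicing gene, rose from 4.90 ± 1.2 to 13.4 ± 1.83 CPM (log2 1.44, SE 0.21, edgeR adjusted p = 1.29e-04).

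RMER19B2 (ERVK), shown above, was called lower at nearly all of its copies. Of its 7 copies 6 were called lower, on 5 chromosomes, and the other had a log2 change of -0.85. The sum was 101, 83.3, 91.2 and 80.01 CPM in control and 35.9, 37.4, 41.3 and 36.8 CPM in MafLSEC-KO, and fell by 1.23 on the log2 scale (SE 0.10, edgeR adjusted p = 2.08e-05). The copy near Prxl2c went from 27 ± 2.0 to 12.4 ± 0.615 CPM, and 2 copies beside Cdh19, a cadherin gene, from 19.1 ± 4.44 to 7.18 ± 0.678 CPM and from 18.1 ± 5.51 to 6.77 ± 1.41 CPM.

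RMER19B was called lower in 6 of 20 copies and higher in 0, with 7 copies above 0. It was named after its values were seen, and its sum was 160 to 179 CPM in control and 115 to 136 CPM in MafLSEC-KO (log2 -0.45, SE 0.07, edgeR adjusted p = 0.00105). Its called copies ranged from -2.49 to -0.52. In the strongest, near Epc1, a gene of the NuA4 acetyltransferase complex, the counts gave 9.81, 9.08, 10.1 and 9.48 CPM in control and 1.77, 1.75, 1.67 and 1.62 CPM in MafLSEC-KO (chr18:6531255-6531595, log2 -2.49, SE 0.23, edgeR adjusted p = 1.45e-06). Both groups were tight and far apart.

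The ERV1 names called lower included LTR78, RLTR14_RN, LTR72_RN and RLTR1D2_MM. LTR78, with 4 unique copies of which 3 were called lower, had a sum of 60.02 ± 6.47 CPM in control and 28.5 ± 1.22 CPM in MafLSEC-KO (log2 -1.07, SE 0.10, edgeR adjusted p = 6.49e-05). The copy near Fcrlb went from 26.8 ± 5.81 to 10.2 ± 0.366 CPM (log2 -1.41, edgeR adjusted p = 2.09e-05). RLTR14_RN went from 100.1 ± 11.5 to 57 ± 2.22 CPM (log2 -0.82), LTR72_RN from 75.9 ± 4.04 to 48.2 ± 3.40 CPM (log2 -0.65) and RLTR1D2_MM from 44.5 ± 3.20 to 27 ± 1.80 CPM (log2 -0.72), each past the threshold, with 2 called copies each. None of the 4 RLTR1D2_MM copies was unique. LTR16D (ERVL) was also called lower, on 2 peaks.

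The RLTR6 terminal repeats (ERV1), the LTRs of VL30 elements, were called lower as well, but in sequence that short reads cannot place with certainty. RLTR6_Mm was called lower in 5 of 15 copies and RLTR6B_Mm in 5 of 13, both with 0 higher and 0 unique copies, and both were named after their values were seen. Their sums fell by 0.45 (SE 0.12, edgeR adjusted p = 0.0209) and 0.66 (SE 0.11, edgeR adjusted p = 0.00145) on the log2 scale. Without control replicates 1 and 3 the RLTR6_Mm sum was not called (log2 -0.22, edgeR adjusted p = 0.0597), nor was it without MafLSEC-KO replicate 1 (0.0543) or 2 (0.0634). The RLTR6_Mm sum was 171 and 171 CPM in the shallow control replicates 1 and 3, 126 and 122 CPM in control replicates 2 and 4, and 102.5 to 118 CPM in MafLSEC-KO.

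The internal part of the same VL30 elements, MMVL30-int, had 0 of 43 copies called and only 3 unique copies, with 629 and 597 CPM in control replicates 1 and 3, 504 and 450 CPM in control replicates 2 and 4 and 476 to 501 CPM in MafLSEC-KO (log2 -0.15, edgeR adjusted p = 0.266). IAPEz-int, the internal part of IAP elements, which still transpose in mice, had 57 tested copies, 0 of them unique and 0 called, and a sum of 302 and 247 CPM in control replicates 1 and 3, 146 and 114 CPM in control replicates 2 and 4 and 107 to 165 CPM in MafLSEC-KO (log2 -0.53, SE 0.27, edgeR adjusted p = 0.182). In both names the 2 shallow controls were high and the groups overlapped. IAPEY4_LTR likewise had 0 of 30 copies called.

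The most numerous LTR names, all ERVL-MaLR, were mixed. MTD was called higher in 13 and lower in 17 of 169 copies, ORR1E in 17 and 10 of 142, and MTC in 5 and 12 of 94. Their sums differed little, by log2 -0.09, 0.01 and -0.08 (edgeR adjusted p = 0.0954, 0.873 and 0.15), while single copies ranged from -1.90 to 2.4. MLTR14, the largest ERV1 name, had 9 higher and 4 lower of 45 (log2 of the sum 0.18, edgeR adjusted p = 0.0878).

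**Figure D3:**
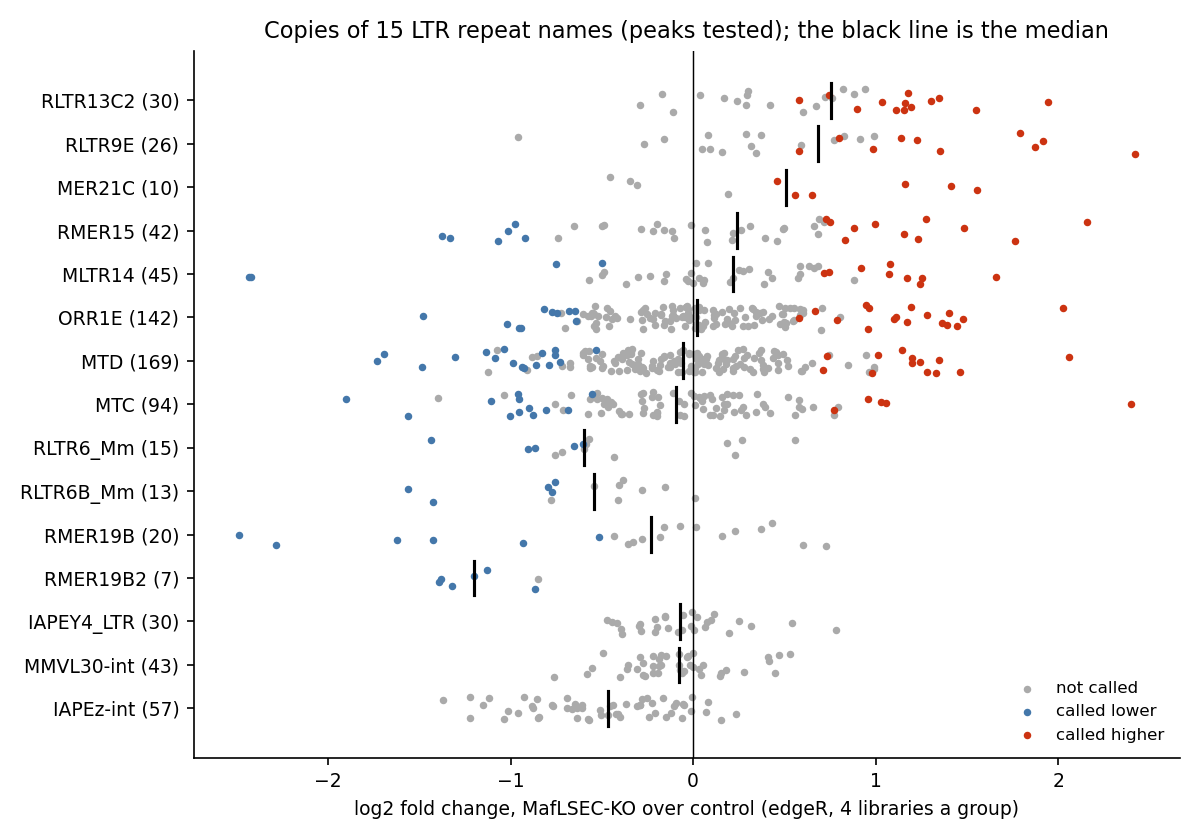
Log2 fold change of MafLSEC-KO over control (x axis) of every tested copy of 15 LTR repeat names (y axis, copies in parentheses), coloured by the edgeR call, with the median of each name as a black line. RLTR13C2, RLTR9E and MER21C had called copies only on the right, RMER19B, RMER19B2 and the RLTR6 names only on the left, and ORR1E, MTD and MTC on both sides.

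Single peaks were named by rule, the 3 called higher and the 3 called lower with the smallest p in each of the 4 families, among peaks without overlap of the groups. The 12 called higher had log2 changes of 1.17 to 2.93 and the 12 called lower -2.92 to -1.40. They were chosen for these differences, so their values are given as a description. All but 6 were intergenic.

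In ERVL-MaLR the gain with the smallest p was an MLT1D copy near Gm20125 (chr10:17221325-17222034), with 4.90, 2.86, 5.06 and 2.48 CPM in control and 26.4, 22.3, 28.0 and 20.6 CPM in MafLSEC-KO (log2 2.74, SE 0.23, edgeR adjusted p = 4.53e-07). An MLT1A-int copy 211 kb from C1d (chr11:17468404-17469405) had 4.59 to 8.35 CPM in control and 27 to 37.2 CPM in MafLSEC-KO (log2 2.35). As the rule required, every MafLSEC-KO library lay above every control in both.

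The ERVL-MaLR losses were an MTD copy in intron 8 of 12 of a transcript near Man1a, a mannosidase gene of N-glycan processing (chr10:53927034-53928493), with 56.1, 48.9, 41.2 and 48.6 CPM in control and 16.1, 13.4, 16.8 and 12.5 CPM in MafLSEC-KO (log2 -1.73, SE 0.15, edgeR adjusted p = 4.69e-07). An MTEb-int copy near Gm10494 (chr17:79519065-79519784) went from 20.5 to 29.2 CPM in control to 3.10 to 5.29 CPM in MafLSEC-KO (log2 -2.43). An MTE2a copy near Mcm10, a replication gene (chr2:5032788-5034016), had 26.7 to 33.2 CPM in control and 8.35 to 9.30 CPM in MafLSEC-KO (log2 -1.74).

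In ERVK, an LTR10_RN copy 1.44 kb from the start of Ppp2r3d (chr9:124477881-124478715) had 4.82 to 10.5 CPM in control and 20.9 to 34.8 CPM in MafLSEC-KO (log2 2.09). The losses were RMER19B near Epc1, given above, RMER19B near Ankrd44 (chr1:54902818-54903351) with 13.8, 20.8, 11.2 and 21.8 CPM in control and 4.57, 2.95, 3.24 and 3.41 CPM in MafLSEC-KO (log2 -2.29), and an RMER19C copy near Gucy1b2, a guanylate cyclase gene (chr14:62497040-62497842), with 28.7, 36.2, 17.1 and 35.2 CPM in control and 8.41, 3.69, 5.12 and 5.12 CPM in MafLSEC-KO (log2 -2.44). In these 2 the shallow control replicates 1 and 3 were the lowest controls. The rule admitted only peaks without overlap of the groups.

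Among the ERV1 gains, a MER89 copy near 4930534H03Rik (chr10:91300006-91300720) had 12.9 to 19.7 CPM in control and 32.7 to 42.3 CPM in MafLSEC-KO (log2 1.17), an intronic RMER5 copy near 4921539E11Rik (chr4:103263616-103265634) 8.36 to 13.6 and 24.7 to 30.9 CPM (log2 1.31), and an RLTR14 copy near Gm3985 (chr8:33089707-33090229) 2.18 to 6.54 and 11.1 to 16.0 CPM (log2 1.89). The ERV1 losses began with an RLTR14_RN copy in an intron near Mphosph9 (chr5:124296381-124296941), with 12.0, 15.4, 13.8 and 22.5 CPM in control and 1.62, 1.84, 2.51 and 2.39 CPM in MafLSEC-KO (log2 -2.92, SE 0.25, edgeR adjusted p = 5.35e-07). An MLTR14 copy near Tmem216, a gene of the ciliary transition zone (chr19:10565234-10565635), went from 15.2 to 27.7 CPM in control to 2.90 to 4.57 CPM in MafLSEC-KO (log2 -2.43), and an RLTR30B_MM copy near Tmem74 (chr15:43678694-43679436) from 43.8 to 65.9 CPM to 19.9 to 23.5 CPM (log2 -1.40).

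In ERVL the gains were an RMER15 copy near Pwp1 (chr10:85739468-85740136), with 3.27, 3.23, 3.84 and 2.71 CPM in control and 13.6, 17.6, 13.8 and 12.3 CPM in MafLSEC-KO (log2 2.16), an MT2B2 copy 60.2 kb from Prdm1, the gene of the repressor BLIMP1 (chr10:44518711-44519248), with 2.48 to 6.54 and 19.2 to 28.4 CPM (log2 2.39), and an LTR53 copy near Grin3a (chr4:49956726-49957163) with 1.24 to 2.03 and 7.38 to 9.19 CPM (log2 2.31). The loss with the smallest p of all LTR peaks was an MLT2B4 copy near Unc5a, a netrin receptor gene (chr13:54916566-54917135), with 16.9, 25.6, 16.1 and 25.3 CPM in control and 3.54, 3.04, 2.72 and 2.90 CPM in MafLSEC-KO (log2 -2.80, SE 0.22, edgeR adjusted p = 2.35e-07). An LTR16D copy near Zmat4 (chr8:23989400-23989775) and a MERVL_2A-int copy near Pura (chr18:36239815-36240314) fell by 2.48 and 1.75 on the log2 scale.

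The LTR peaks with the highest level were not called. An ORR1D2 copy near Dnajc3 had 70.6 to 106 CPM in control and 82.6 to 121 CPM in MafLSEC-KO (log2 0.20, edgeR adjusted p = 0.377), and the highest peaks of ERVK, ERV1 and ERVL, near Vwa7, P2ry1 and Adamtsl4, had log2 changes of 0.16, -0.18 and -0.02.

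**Figure D4:**
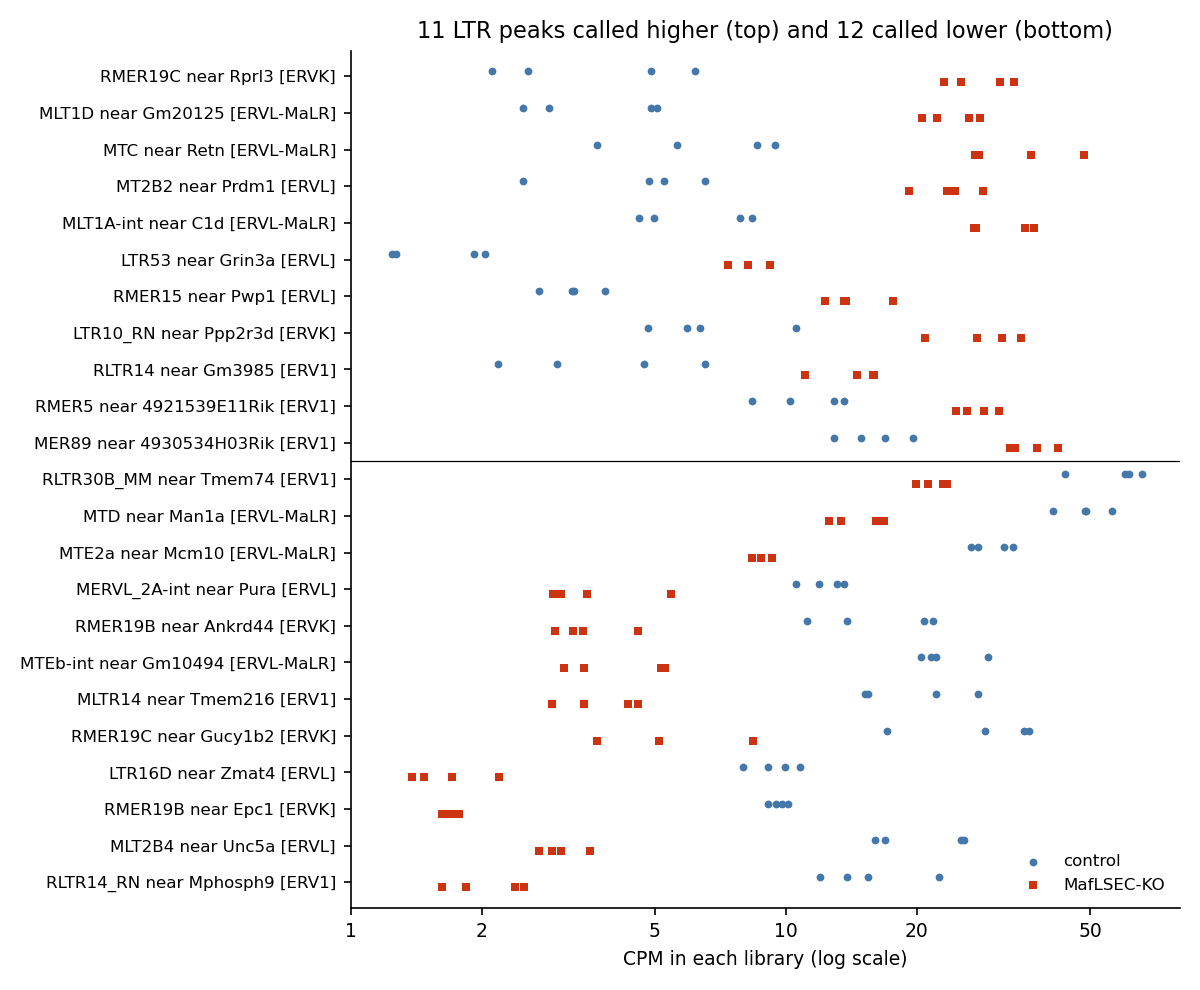
CPM in each library (x axis, log scale) of 11 of the LTR peaks called higher (above the line) and the 12 called lower (below) named by rule, with control libraries as blue circles and MafLSEC-KO libraries as red squares. The rule took only peaks where the 4 libraries of one group lie on one side of the other 4. The rows run from log2 2.93 at RMER19C near Rprl3 to -2.92 at RLTR14_RN near Mphosph9.

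A few of the gains lay beside the locus of the Cre driver. Around Clec4g, 25 consecutive listed peaks over 172 kb (chr8:3642493-3814135) were all called higher, by 1.22 to 3.21 on the log2 scale. The Clec4g-iCre transgene was built from this gene, so extra DNA copies of the region and open chromatin cannot be told apart there. Of the 25 peaks 4 were LTR peaks with log2 changes of 2.4 to 2.93, among them the named MTC copy near Retn, the resistin gene (chr8:3645766-3646316), the named RMER19C copy near Rprl3 (chr8:3796652-3797472) and the MERVL-int copy near Rprl3 (3.06 ± 1.56 against 17.8 ± 4.46 CPM). Without the 25 peaks, 273 LTR peaks were called higher. Over all called LTR peaks, these 4 included, 50.2% of those called higher had another peak called higher within 50 kb and 48.2% of those called lower another called lower, close to the 51.4% and 49.6% of all called peaks.

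The letters under the called LTR peaks differed by direction. In the 300 bases around the centre, searched on both strands, the half-site TGCTGA was present in 44.3% of LTR peaks called lower, 21% of those not called and 19.1% of those called higher, against 22.7% of all listed peaks. The AP-1 word TGANTCA was present in 31% of LTR peaks called higher, 13.6% of those called lower and 11.2% of those not called, against 11.5% of all. Read the other way, 16.2% of LTR peaks with TGCTGA were called lower and 8.49% higher, and 23.4% of those with the AP-1 word were called higher and 8.45% lower. Peaks outside repeats had nearly the same shares, with TGCTGA in 41.2% of those called lower and the AP-1 word in 25.2% of those called higher. The match of a word is a description and not a binding site, and no test was made over peaks.

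Each large family showed the half-site pattern. TGCTGA was in 58.6% of ERVL peaks called lower and 22.9% of those not called, in 52.7% and 20.4% in ERVK, in 40% and 23.9% in ERV1 and in 38.5% and 20.1% in ERVL-MaLR. The AP-1 word was in 52.9% of ERVL peaks called higher and 17.1% of those not called, in 31% and 12.5% in ERVL-MaLR, in 22.2% and 8.04% in ERVK and in 19.2% and 9.29% in ERV1. In peaks called lower it was in 20.7% in ERVL, 9.38% in ERVL-MaLR, 18.2% in ERVK and 11.1% in ERV1. Restricting LTR peaks to unique ones gave TGCTGA in 44.3% of lower peaks, 19.8% of higher peaks and 22.5% of those not called. The AP-1 word was in 31.7% of unique higher peaks, 13.3% of lower peaks and 13.2% of those not called.

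Other words were more frequent in LTR peaks called higher, and also in peaks outside repeats called higher. The GATA word AGATAA was in 35% of them, in 24.1% of those called lower, in 20% of those not called and in 16% of all listed peaks. The word searched as MEF2, with its middle bases left free, stood at 13.4%, 7.02%, 5.46% and 4.41% in the same order. In the ERVK peaks called higher, which include RLTR13C2, it stood at 25.9%. The SOX word AACAATG was in 13%, 4.39%, 5.50% and 5.14%. STAT, TTC and GAA with 3 bases between, was in 17.1% of LTR peaks called lower, 12.3% of those called higher, 7.25% of those not called and 9.38% of all peaks. In ERV1 the STAT word reached 40% of peaks called lower against 13.2% of those not called, and GATA was there more frequent in peaks called lower (46.7%) than in those called higher (26.9%). The ERV1 peaks called lower include RLTR6 copies, which are not unique, and their part in these shares was not tested. Among unique LTR peaks called lower, STAT was in 14.3% and GATA in 21.2%. The CTCF core word was in 4.43% of LTR peaks not called, in 2.19% of those called lower and in 0.361% of those called higher, against 6.77% of all. The palindromic MAF element, the half-site and its reverse complement with 1 base between, which contains the AP-1 word as well, occurred in 1 tested LTR peak, which was called lower.

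**Figure D5:**
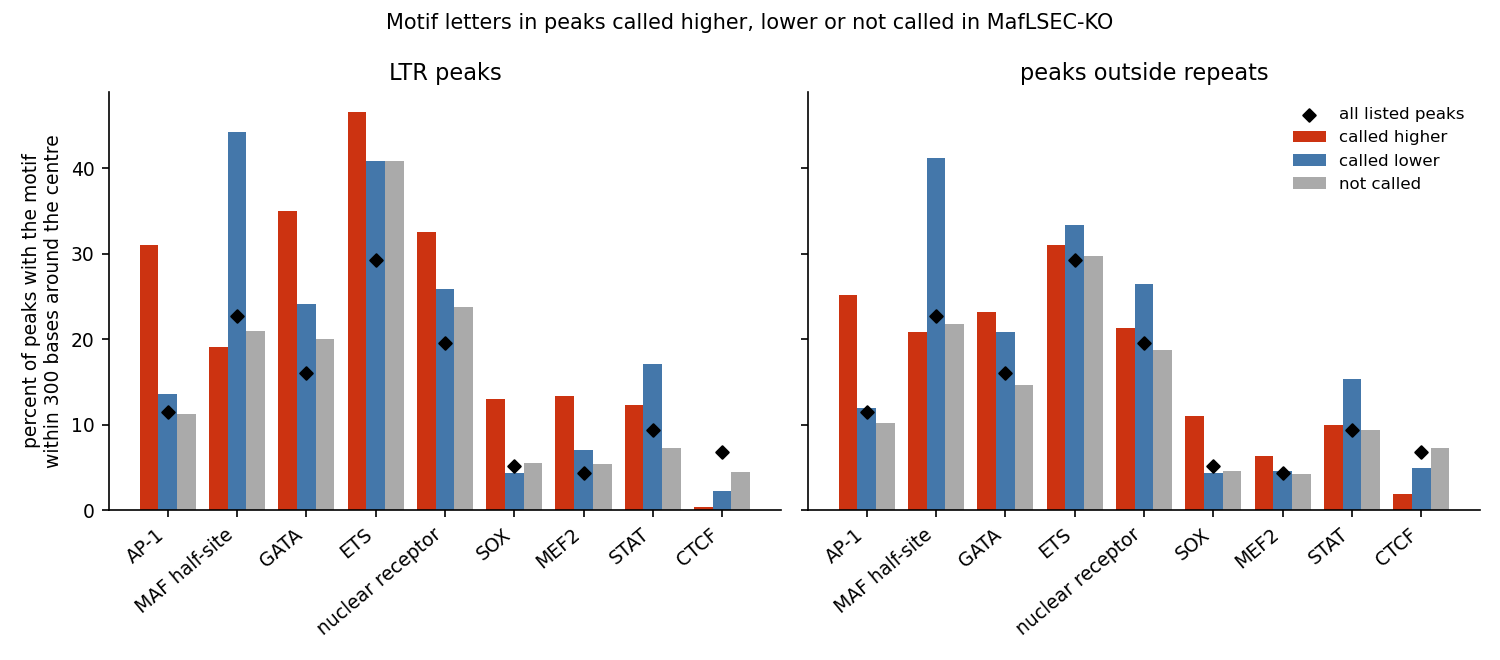
Percent of peaks holding a motif within 300 bases around the centre (y axis) for 9 of the 21 motifs searched (x axis), for peaks called higher (red), lower (blue) or not called (grey), in LTR peaks (left) and peaks outside repeats (right), with black diamonds for all listed peaks. The MAF half-site is highest in peaks called lower (44.3% of LTR peaks) and the AP-1 motif in peaks called higher (31%).

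In several subfamilies the searched word was also common in copies that were not called. The MEF2 word of RLTR13C2 shown above was found in 11 of 13 copies called higher and in 11 of 17 not called, and in both sets the median copy differed from the Gatb copy at 1 base of 40. GATA and ETS (GGAAGT) words were each in 25 of the 30 copies. The AGGTCA of RLTR9E was in 7 of 10 copies called higher and 12 of 16 not called. RLTR9E also held TGCTGA in 14 of 26 copies, of which 0 were called lower. In RMER19B, TGCTGA was in all 6 copies called lower and in 13 of 14 not called. In RMER19B2 it was in 4 of 6 copies called lower and in the 1 not called. The AP-1 word was distributed otherwise in RMER15 and ORR1E. In RMER15 it was in 8 of 11 copies called higher, 1 of 6 called lower and 11 of 25 not called, and in ORR1E in 8 of 17 called higher, 0 of 10 called lower and 18 of 115 not called.

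The windows of 4 named peaks and of 1 RLTR13C2 copy are printed because they hold the words in question, with TGANTCA and TGCTGA on either strand in capitals in the first 4. Of the 12 named peaks called lower 6 held TGCTGA and 5 the AP-1 word, and of the 12 called higher 2 and 4 did, so many of the strongest peaks had neither. The MLT1D window near Gm20125 (chr10:17221529-17221828), called higher, and the RMER15 window near Pwp1 (chr10:85739652-85739951), called higher, have 2 AP-1 words each.
MLT1D near Gm20125: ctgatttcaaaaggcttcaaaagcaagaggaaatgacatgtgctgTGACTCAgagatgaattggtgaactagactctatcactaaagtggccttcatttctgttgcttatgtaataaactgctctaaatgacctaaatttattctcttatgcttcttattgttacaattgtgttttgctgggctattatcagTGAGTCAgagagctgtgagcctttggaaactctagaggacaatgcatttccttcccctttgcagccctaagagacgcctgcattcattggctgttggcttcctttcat
RMER15 near Pwp1: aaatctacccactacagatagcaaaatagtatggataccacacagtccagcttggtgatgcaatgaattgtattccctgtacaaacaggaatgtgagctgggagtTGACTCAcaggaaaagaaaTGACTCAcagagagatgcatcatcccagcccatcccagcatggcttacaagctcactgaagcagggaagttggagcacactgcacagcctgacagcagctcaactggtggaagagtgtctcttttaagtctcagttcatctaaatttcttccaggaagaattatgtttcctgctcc
The MLT2B4 window near Unc5a (chr13:54916700-54916999), called lower, has an AP-1 word and a half-site that overlap, and the MLTR14 window near Tmem216 (chr19:10565284-10565583), called lower, has 2 of each.
MLT2B4 near Unc5a: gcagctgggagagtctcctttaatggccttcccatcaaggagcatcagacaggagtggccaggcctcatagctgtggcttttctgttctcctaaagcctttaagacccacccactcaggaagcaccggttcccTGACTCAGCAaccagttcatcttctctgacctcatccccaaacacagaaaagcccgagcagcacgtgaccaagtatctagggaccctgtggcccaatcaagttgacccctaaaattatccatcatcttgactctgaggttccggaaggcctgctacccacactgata
MLTR14 near Tmem216: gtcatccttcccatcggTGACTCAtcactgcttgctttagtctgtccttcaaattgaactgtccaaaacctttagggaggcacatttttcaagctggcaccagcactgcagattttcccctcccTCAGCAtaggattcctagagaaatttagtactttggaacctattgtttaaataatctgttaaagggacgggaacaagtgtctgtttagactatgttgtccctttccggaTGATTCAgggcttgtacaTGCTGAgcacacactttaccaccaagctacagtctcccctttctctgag
The RLTR13C2 window near Tmem178b (chr6:40214359-40214658) has the ETS and MEF2 words in capitals.
RLTR13C2 near Tmem178b: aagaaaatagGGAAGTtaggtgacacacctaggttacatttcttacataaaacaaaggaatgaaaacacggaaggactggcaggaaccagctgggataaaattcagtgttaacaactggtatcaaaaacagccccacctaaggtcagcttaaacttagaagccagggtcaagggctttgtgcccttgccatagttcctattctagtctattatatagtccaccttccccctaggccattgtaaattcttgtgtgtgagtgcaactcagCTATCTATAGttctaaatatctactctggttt

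LTR peaks were then counted near genes of LSEC biology. Of 78 genes taken from the study and its field, 24 were the nearest gene of 35 tested LTR peaks, of which 2 were called higher and 5 lower, beside 10.1% and 8.32% of all tested LTR peaks and 8.97% and 6.45% of all tested peaks, and with a median log2 change of -0.11 against -0.03 over all tested LTR peaks. Over all peaks nearest to the same genes, 86 of 695 were called higher and 95 lower. The 35 LTR peaks are among these 695, and LTR peaks made up 4.74% of the whole table. The list was chosen with results of these samples known. Stab2, the gene of the scavenger receptor stabilin-2, had an ORR1A2 and an MTE2b copy in its introns, both called lower (7.04 against 2.52 CPM, log2 -1.45, SE 0.29, edgeR adjusted p = 0.0018, and 14.4 against 8.09 CPM, log2 -0.86, SE 0.22, edgeR adjusted p = 0.0104). The groups overlapped at the MTE2b copy. An LTR41B copy in an intron of Stab2 was not called (log2 -0.13, edgeR adjusted p = 0.746). An MLT1A1 copy in an intron of Dpp4, the gene of the surface peptidase CD26, went from 5.72 to 1.82 CPM (log2 -1.65, SE 0.33, edgeR adjusted p = 0.00182). LTR copies near Kit, a receptor tyrosine kinase gene, and Fcgr2b, an Fc receptor gene, were also called lower (log2 -0.75 and -0.77), while an ORR1A2 copy near Kit was not (log2 -0.46, edgeR adjusted p = 0.203), and copies near Mindy4 and Cav1, the caveolin-1 gene, higher (log2 1.08 and 0.68).

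Promoters were also examined at 34 genes listed for a part in the silencing of LTR elements or in DNA methylation and its removal. The demethylases Tet2 and Tet3 were among them. Of the 34 genes 16 had a tested promoter peak, and 1 was called higher and 0 lower, against 425 and 128 of all 7751 promoter peaks. The promoter of Zfp91 had 134 CPM in control and 172 CPM in MafLSEC-KO (log2 0.36, SE 0.11, edgeR adjusted p = 0.0356). Zfp91 is a zinc finger gene whose part in silencing is not established here. Trim28, which recruits SETDB1, had 70.7 and 77.3 CPM (log2 0.13, SE 0.12, edgeR adjusted p = 0.513), and Uhrf1 and Daxx, which act in DNA methylation and histone H3.3 deposition, had log2 changes of 0.09 and 0.12. Promoter accessibility does not measure the level of these proteins.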

How the data were processed

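CD146-selected LSECs were profiled by ATAC-seq in 4 control and 4 MafLSEC-KO libraries (5.37 to 13.36 M counts in listed peaks). The authors trimmed reads, aligned them to mm10 with Bowtie2 at default settings, which places a read with several equal matches at 1 of them, removed duplicates, called peaks with MACS2, combined the peak sets with bedtools 2.30.0 and annotated them with HOMER 4.11. A Tn5 offset correction is not given in the sources used here. The deposited table holds raw counts per peak and library, which were used. It also holds the authors' size-factor normalized signal, their RPKM, and columns of their own comparison, namely a log2 fold change and its error, a test score and a p-value before and after adjustment. None of these was used. The deposited distance to the nearest transcription start, its gene, the annotation and the positions (written as in the table) were used. The table lists 58522 peaks, all with a summed RPKM of at least 48.37, and numbers run to 78026. Rows with no gene name held 0.0775% of counts.

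Counts were tested with edgeR 4.0.16 in R 4.3.3 (TMM, filterByExpr, quasi-likelihood test, group only, all 8 libraries, two-sided, Benjamini-Hochberg over all 58268 tested peaks, call at adjusted p under 0.05). The filter removed 254 peaks. Repeat names were tested on counts summed per name, with scaling from all peaks. Fold changes are MafLSEC-KO over control. Names described were up to 6 called higher and 6 called lower with the smallest p, the 3 with most peaks in each family, and some added after values were seen. Of the peaks and genes that the rules name, 2 are not reported here. Replicates differed by more than counting noise and none was a copy of another. The 21 words were searched in 300 bases around each peak centre. Uniqueness counts 60-base words of the peak that occur once in GRCm38. DESeq2 1.42.0 and the other alternatives are given in the closing section. The members, lists and words were chosen with earlier results of these data known.

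On simulated counts for 58380 peaks, with an assumed spread, edgeR found 25.4% of 1.5-fold, 86.4% of 2-fold and 100% of 4-fold changes.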

Additional observations from a re-analysis of the deposited data

Results flagged for a closer look

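Of 142 groups of 4 libraries examined, 7 had 1 library far from the other 3, and chance alone gives about 1 in 20. RLTR21 had 39.0 CPM in MafLSEC-KO replicate 3, with the next library at 28.9 CPM. Control replicate 4, the deepest control, stood apart for 5 repeat names of which 4 are ERVL-MaLR, being highest for MTC (874 CPM, next 851), MLT1B (278, next 257), MTE2b (447, next 409) and ORR1F (724, next 667) and lowest for LTR41 (180 CPM, next 192). The ERVL-MaLR share of counts was lowest in control replicate 2, at 1.12% against 1.15% in the other controls.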

How the results depend on the processing

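DESeq2 called 540 LTR peaks against 505 by edgeR, and 500 were shared (99.0% and 92.6% of the calls). No result changed direction past the threshold in any alternative. A covariate for the log2 total count gave 466 LTR peaks higher and 348 lower, and 91 and 72 LTR names. Same-numbered libraries correlated at 0.189, 0.0954, 0.254 and 0.441. The best-matching MafLSEC-KO library had the same number for control replicates 2, 3 and 4, and was replicate 3 for control replicate 1. The labels state no pairing, and the main test has no block, so a pairing by number is left undecided. A replicate block gave 431 LTR peaks higher and 358 lower and 82 and 75 LTR names. Leaving out 1 library gave 203 to 294 LTR peaks higher and 166 to 328 lower, and 28 to 60 LTR names higher and 24 to 58 lower. The fewest names were called higher without MafLSEC-KO replicate 3 (28), MafLSEC-KO replicates 1 and 2 (33 and 34) and control replicate 2 (29), and lower without MafLSEC-KO replicate 2 (24) and control replicate 2 (28), and the cause was not tested. Without control replicates 1 and 3 together, 390 LTR peaks were called higher and 304 lower, with 122 ERVK peaks higher and 45 ERVL peaks lower against 81 and 29. RLTR49, called higher in the sum over 11 peaks (log2 0.21, edgeR adjusted p = 0.0383), lost its call in 11 of 16 alternatives, and RLTR6_Mm in 3. All 24 named peaks called by rule kept their calls in the 15 alternatives run for each. Reads in sequence that occurs more than once limit what can be said of IAP, VL30 and RLTR13C2 copies.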
